A study of Sus scrofa with 6 samples.

Results

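Messenger RNA levels were compared between Korean native pigs and Berkshire pigs in fat, liver and muscle, and the comparison asked which breed differences were the same in all 3 tissues. All 6 libraries of the study were used, 3 from each breed and 1 for each breed and tissue, and all 25322 gene rows entered before a filter on low counts. The Korean native groups were fat, liver and muscle of pigs labelled as that breed, whose sample titles carry the unexplained code JNP, and the Berkshire groups were the same tissues of pigs labelled Berkshire. The labels give no age, sex, diet, fasting state, time of day or animal number. Whether the libraries of a breed share an animal is not given there, and p-values therefore measure the spread among these libraries only. Breed also cannot be told apart from the animals sampled.

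Berkshire is a breed of British origin kept for well-marbled pork. The Korean native pig is an indigenous, slow-growing breed whose meat is also prized for its fat. Fat, liver and muscle share the work of storing and releasing fuel. Between meals and under glucocorticoid hormones, liver makes glucose with enzymes such as PCK1, muscle spares glucose through the kinase PDK4, and fat releases fatty acids. After feeding, glycogen is laid down again in liver and muscle. A difference that appears in organs with such unlike jobs is what the comparison over tissues measures.

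Each library held between 5897407 and 7912093 counts on genes. Levels are given as CPM, the counts of a gene relative to the library total, scaled by TMM factors that correct for RNA composition. Where 3 values or ratios follow one another, they are for fat, liver and muscle in that order. CPM is not divided by transcript length, so levels are compared only within a gene. The tissue labels matched their defining markers: the albumin gene ALB stood at 176485 CPM in liver of Berkshire and 212897 CPM in liver of Korean native pigs, and at 52.6 CPM or less in the other 4 libraries. The muscle actin gene ACTA1 reached 49067 and 71091 CPM in muscle and at most 22.0 CPM elsewhere, and the lipid droplet gene PLIN1 reached 1096 and 621 CPM in fat and at most 95.7 CPM elsewhere. In such whole tissue samples, fewer cells of a type and less RNA per cell cannot be told apart.

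Most breed ratios past 2-fold in 1 tissue were not shared by all tissues. Each ratio compares 1 library with 1 library. Spread between animals and counting error therefore cannot be told apart from breed differences that depend on the tissue. Of the 8434 genes that reached 5 CPM in either library of every tissue, 2632 (31.2%) had the same sign in all tissues, with 1353 higher and 1279 lower in Korean native pigs. That balance moved with the scaling: by total counts, without TMM factors, 733 were higher and 1915 lower, of 8094 genes. Total counts put the median log2 ratio of all genes tested at -0.06 in fat, -0.04 in liver and -0.31 in muscle, against 0.01, 0.00 and -0.01 with TMM factors. A ratio of at least 2-fold was reached by 421 genes in fat, 662 in liver and 1422 in muscle, and 2060 genes reached it in at least 1 tissue. Only 61 reached it in every tissue. In 47 of those 61 the direction was the same throughout, while fat went against the others in 6 genes, liver in 5 and muscle in 3. Muscle had the widest spread of log2 ratios, with an SD of 0.79 over genes against 0.63 in liver and 0.53 in fat. Across genes, Pearson's r between log2 ratios was 0.23 between fat and liver, 0.16 between fat and muscle, and 0.23 between muscle and liver. Spearman's rho was 0.13, 0.039 and 0.20 in the same order. Without the 47 shared genes r was 0.11, 0.059 and 0.15. These are descriptions across 8434 genes, which are not independent replicates.

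**Figure D1:**
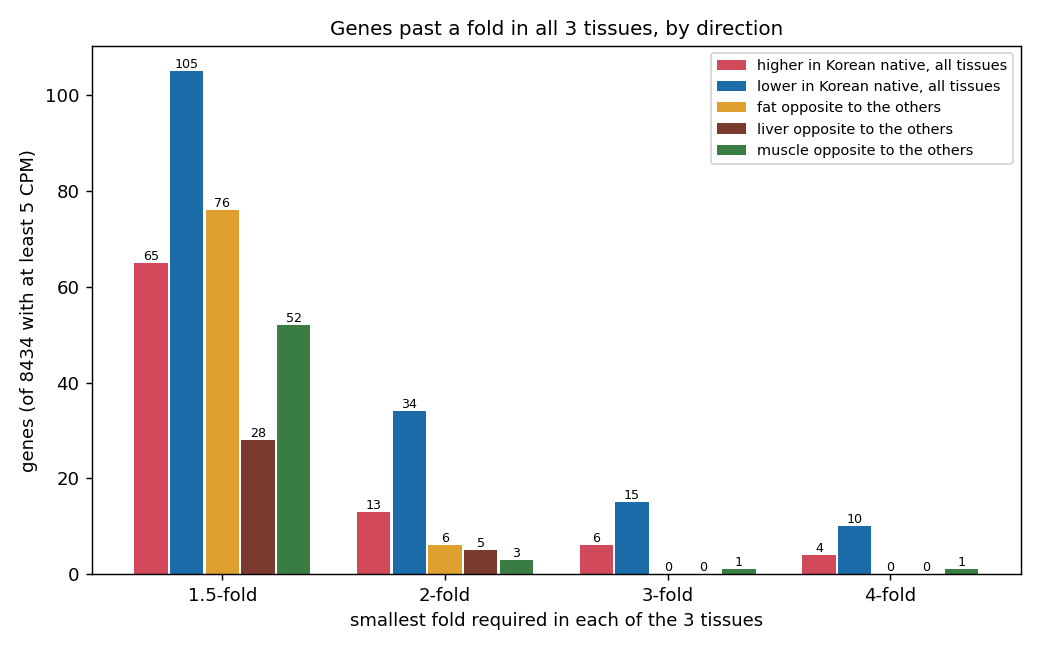
Bars count genes, out of 8434, whose breed ratio passed the fold on the x axis in each of the 3 tissues. Red bars are genes higher in all Korean native tissues, blue bars genes lower in all, and the other colours genes in which 1 tissue went against the others. At 2-fold, 13 genes were higher and 34 lower throughout, and at 4-fold 4 and 10.

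The shared set leaned towards lower levels in Korean native pigs. At 2-fold, 13 genes were higher in all tissues (0.154% of the 8434) and 34 were lower (0.403%). Raising the fold to 3 left 6 higher and 15 lower genes, and lowering it to 1.5 gave 65 and 105. A gene symbol was available for 20 of the 47, with 6 higher and 14 lower. In 25 of the 47 the 3 libraries of one breed lay wholly above the 3 of the other, and 6 of these had a symbol. Over all 8434 genes, all Korean native libraries lay above all Berkshire libraries in 2.03% and below them in 2.10%. Such separation needs the same sign in every tissue. The 47 were picked by that sign and by size, so their larger share cannot be read as support. WDR17, SLC27A6 and COL4A6 sat just inside the 2-fold limit with smallest ratios of 2.01, 2.05 and 2.05. APAF1, FAM20C and GRK4 sat just outside it, at 1.99, 1.94 and 1.93. These smallest ratios include the prior count of 2. Without that prior APAF1 was lower by 2.04-fold, 5.86-fold and 3.49-fold, while FAM20C stood at 1.99-fold in fat and GRK4 at 1.95-fold in muscle. Permuting breed within tissues allows 8 arrangements, so the smallest two-sided exact p for any single gene is 0.25.

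**Figure D2:**
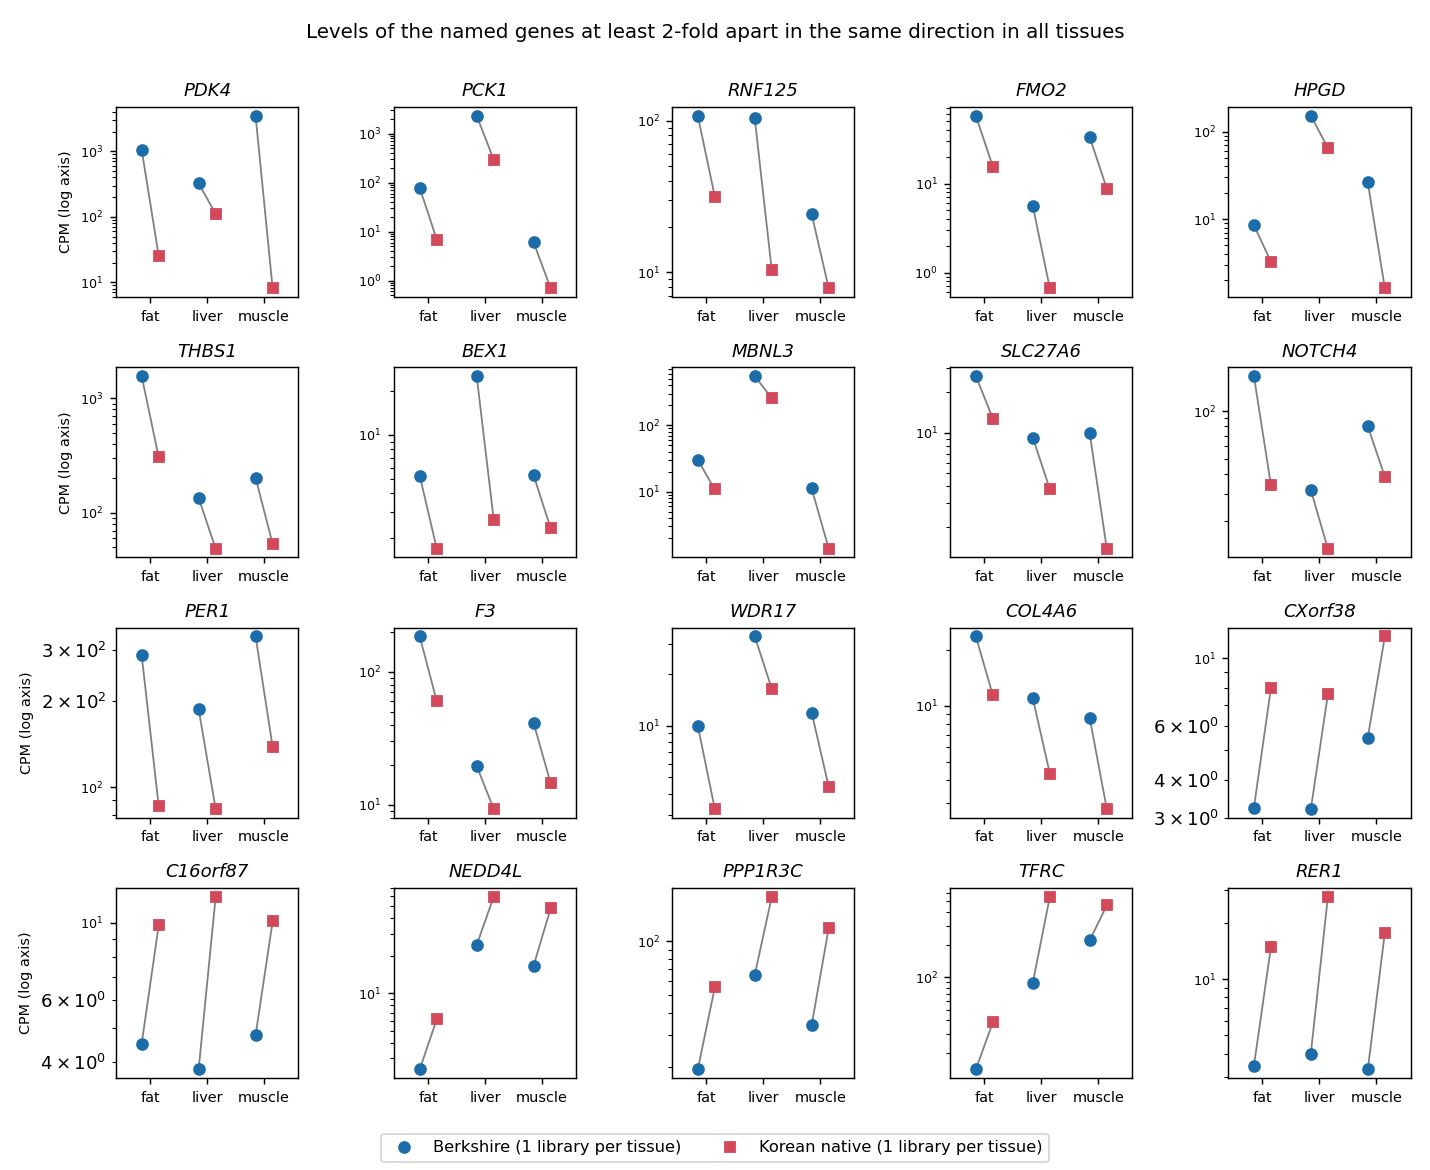
Each panel shows 1 named gene of the shared set, with CPM on a log axis for the Berkshire library (blue circle) and the Korean native library (red square) of each tissue, joined by a line. There is 1 library per point and no error bar. In 14 panels the 3 lines fall from Berkshire to Korean native, and in 6 they rise.

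With tissue as a covariate, the breed term of a model fitted to the 6 libraries was tested in 13810 genes by edgeR's quasi-likelihood test. At a Benjamini-Hochberg adjusted p under 0.05, 4 genes rose in Korean native pigs (0.0290%) and 11 fell (0.0797%). All 15 had the same sign in every tissue, and 10 of them were among the 47. Without adjustment, 512 genes (3.71%) were higher and 591 (4.28%) lower at a p under 0.05, and by total counts 296 and 849. The count of calls moved with the libraries used. Leaving out 1 library removes its tissue from the breed comparison, and the number of calls then was 46 or 42 (leaving out the Berkshire or the Korean native fat library), 72 or 83 (liver, likewise) and 16 or 31 (muscle, likewise). Of the 15, those fits kept between 6 and 14, the fewest without Berkshire muscle. DESeq2 called 93 of 18959 genes, among them all 15 and 38 of the 47. Both sets were drawn from these same libraries, so the overlap is no independent support.

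Only 1 of the 15 called genes had a symbol. Among the 14 others, ENSSSCG00000030790 fell from 87.3, 143 and 58.6 CPM in the Berkshire libraries to 0.394, 0.331 and 0.231 CPM (adjusted p = 0.0018 in edgeR). ENSSSCG00000023684 was a mainly hepatic gene that fell from 359 to 7.62 CPM in liver, with 5.88 and 0.296 CPM in fat and 0.732 and 0 CPM in muscle (adjusted p = 0.034 in edgeR). In the other direction, ENSSSCG00000021391 had 1 count or none in every Berkshire library and 13.9, 11.8 and 0.923 CPM in the 3 Korean native ones (adjusted p = 0.034 in edgeR). The files and the table of names pair none of these identifiers with a symbol. Of the shared genes, 3 of the 47 shared genes had at most 3 counts in every Korean native library and 1 in every Berkshire library, and none of these 4 had a symbol. Reads without a unique place in the genome were left uncounted, from 14.1% to 20.8% of a library's entries, and their part in these values was not tested.

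The called gene with a symbol was PCK1, the cytosolic enzyme that commits carbon to new glucose. It measured 78.3, 2339 and 6.04 CPM in the Berkshire libraries and 6.90, 294 and 0.692 CPM in the Korean native tissues. The mean log2 ratio was -3.04 ± 0.38 (SD over 3 tissues), and PCK1 fell in the test with a log2 coefficient of -3.21 (adjusted p = 0.037 in edgeR). The value in Korean native muscle rests on 3 counts. Each tissue had its Korean native library below its Berkshire library, but liver in Korean native pigs stayed above fat in Berkshire. The adjusted p was 0.074 without Berkshire fat, 0.076 without Korean native fat and 0.051 without Berkshire muscle, with log2 values of -3.02, -3.02 and -3.23.

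PDK4, the kinase that switches off pyruvate dehydrogenase and so spares glucose, showed a shared direction with very unequal size. Its level was 1060, 327 and 3496 CPM in the Berkshire libraries against 25.2, 110 and 8.07 CPM in Korean native pigs. The 3 log2 ratios of -5.38, -1.57 and -8.71 averaged -5.22 ± 3.57 (SD over 3 tissues). No library of one breed overlapped the other, yet the gene did not pass (adjusted p = 0.44 in edgeR). The model takes the departure between tissues as its spread. Of other fuel enzymes, FBP2, the muscle form of fructose bisphosphatase, was at 14.6, 0.400 and 136 CPM in Berkshire and 31.0, 1.49 and 354 CPM in Korean native pigs. LDHA, which interconverts pyruvate and lactate, was 3.11-fold higher in Korean native fat and 3.34-fold higher in muscle but 1.08-fold apart in liver. In the list of 16 tested genes for gluconeogenesis and pyruvate use, 4 were higher in all tissues and 4 lower, against 14.8% and 14.7% of all genes tested.

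The fasting and glucocorticoid list, to which both genes belong, lay lower in every tissue. None of its 18 tested members was higher in all 3 tissues and 8 were lower, against the same 14.8% and 14.7%. At an unadjusted p under 0.05, 9 members were lower and 0 higher, against 4.28% and 3.71% of all genes tested, and only PCK1 passed adjustment. The median log2 ratio was -1.24 in fat, -0.45 in liver and -1.27 in muscle, where all genes tested had medians of 0.01, 0.00 and -0.01. KLF9, a transcription factor induced by glucocorticoids, stood at 199, 253 and 346 CPM in the Berkshire libraries and at 136, 110 and 92.7 CPM in Korean native pigs. Every Korean native library lay below every Berkshire one. FBXO32, a ubiquitin ligase raised in wasting muscle, was lower by 5.41-fold in fat, 2.94-fold in liver and 1.59-fold in muscle. INSR, the insulin receptor, which is not on that list, measured 15.9, 34.4 and 22.7 CPM in Berkshire and 9.96, 12.4 and 12.2 CPM in Korean native tissues, also without overlap. It belongs to the growth hormone, IGF and myostatin list. Of the 19 tested genes there, 1 was higher and 4 were lower in all tissues, against the same 14.8% and 14.7%. Adjusted p in edgeR was 0.44 for KLF9, 0.41 for FBXO32 and 0.44 for INSR.

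PER1 belongs both to the fasting and glucocorticoid list and to the circadian clock, where its protein represses its own transcription. It measured 288, 187 and 335 CPM in the Berkshire libraries, with 85.7, 83.8 and 138 CPM in Korean native pigs. The mean log2 ratio was -1.39 ± 0.31 (SD over 3 tissues), the libraries of the breeds did not overlap, and the adjusted p was 0.23 in edgeR. The clock output genes did not all follow it. HLF, a transcription factor of clock output, was lower by 2.45-fold, 1.32-fold and 2.15-fold, while DBP, of the same family, was higher by 1.26-fold, 3.14-fold and 2.84-fold in fat, liver and muscle. Of 14 tested clock genes, 5 were lower and 2 higher in all tissues, where all genes tested gave 14.7% and 14.8%. The time of day of sampling was not analysed here.

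**Figure D3:**
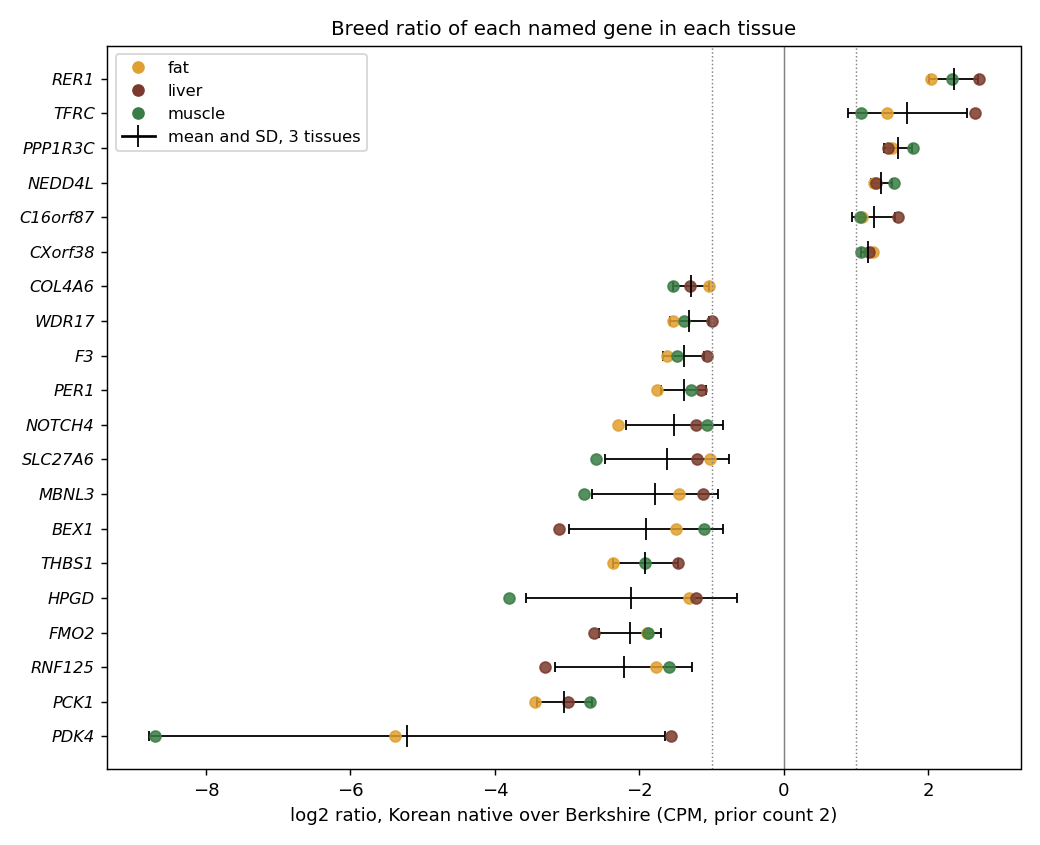
Points give the log2 ratio of Korean native over Berkshire in fat, liver and muscle for the 20 named shared genes. Black ticks and whiskers give the mean and SD over the 3 tissues, and dotted lines mark 2-fold. PDK4 has the widest whisker (SD 3.57) and CXorf38 the narrowest (SD 0.09).

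Glycogen genes were more often higher than lower. PPP1R3C, which brings protein phosphatase 1 to glycogen and favours its synthesis, was at 19.4, 65.0 and 34.2 CPM in Berkshire and 55.5, 177 and 119 CPM in Korean native pigs. Its ratios of 2.86-fold, 2.72-fold and 3.47-fold were close to one another, and its adjusted p was 0.13 in edgeR. Each Korean native library was above the Berkshire library of its tissue, although Berkshire liver was above Korean native fat. On the side of breakdown, the muscle phosphorylase PYGM was higher by 3.89-fold, 1.28-fold and 2.39-fold. PHKG1, a catalytic subunit of phosphorylase kinase, was higher by 1.85-fold, 1.99-fold and 2.56-fold. Of 22 tested glycogen genes, 8 were higher and 1 was lower in all tissues (14.8% and 14.7% of all genes tested), and 5 higher and 1 lower had an unadjusted p under 0.05 (3.71% and 4.28% of all genes). None passed adjustment. The list medians were 0.08 in fat, 0.26 in liver and 0.69 in muscle, and by total counts 0.00, 0.21 and 0.38 with 6 genes higher in all tissues.

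Iron uptake gave another higher gene. TFRC, the transferrin receptor that brings iron into cells, stood at 14.1, 88.6 and 219 CPM in the Berkshire libraries and at 38.4, 554 and 461 CPM in Korean native pigs. The mean log2 ratio was 1.71 ± 0.82 (SD over 3 tissues), with the adjusted p at 0.34 in edgeR. STEAP3, the reductase that acts on iron after uptake, was higher by 1.88-fold, 2.05-fold and 1.31-fold. HMOX2, a heme-degrading enzyme, was lower by 1.28-fold, 2.02-fold and 1.68-fold. Red cell markers were higher in Korean native liver and fat and lower in muscle. Their 6 measured genes summed in liver to 249 CPM (Berkshire) and 2137 CPM (Korean native), in fat to 113 and 187 CPM, and in muscle to 102 and 76.1 CPM. At 0 counts were 3 of the 6 in Korean native muscle and 1 in each of the other libraries. HBB, the beta globin gene, made up most of the sum at 233 and 2031 CPM in liver. Their part in the TFRC difference was not tested. Of 25 tested iron and heme genes, 8 were higher and 4 lower in all tissues (14.8% and 14.7% of all genes tested), and 4 and 4 by total counts.

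THBS1, TNC, ADAMTS5 and COL4A6 of the matrix and F3 of clotting were lower in all Korean native tissues. THBS1, thrombospondin, a secreted protein that binds matrix and activates TGF-beta, measured 1568, 135 and 203 CPM in the Berkshire libraries, with 305, 48.6 and 53.5 CPM in Korean native pigs. Its mean log2 ratio was -1.92 ± 0.45 (SD over 3 tissues; adjusted p = 0.14 in edgeR). The Korean native library was the lower one in each tissue, although Korean native fat was above Berkshire liver and muscle. F3, tissue factor, which starts clotting, stood at 185, 19.6 and 41.2 CPM against 60.0, 9.28 and 14.5 CPM, a mean log2 ratio of -1.39 ± 0.29 (adjusted p = 0.20 in edgeR). TNC, tenascin C, was lower by 3.28-fold, 2.82-fold and 3.75-fold (adjusted p = 0.13 in edgeR). Its liver ratio rests on 14 counts in Berkshire and 6 in Korean native pigs. TNC and ADAMTS5 stayed under 5 CPM in liver and are not among the 47 shared genes. ADAMTS5, a protease that cuts aggrecan, measured 89.3, 2.40 and 19.6 CPM in Berkshire and 37.6, 0.497 and 5.07 CPM in Korean native pigs, and its relative ADAMTS4 was 5.21-fold lower in fat with few counts elsewhere. COL4A6, a basement membrane collagen chain, was lower by 2.08-fold, 2.55-fold and 3.11-fold.

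No member of the matricellular and ADAMTS list was higher in all tissues and 11 of 29 were lower, and the extracellular matrix list had 0 of 26 higher and 10 lower, against 14.8% and 14.7% of all genes tested. No gene of either list passed adjustment, and 8 in each had an unadjusted p under 0.05, all lower (4.28% of all genes). Their medians were uneven: -0.17, -0.31 and -1.61 for the first list and 0.03, -0.26 and -1.05 for the second in fat, liver and muscle, the value of 0.03 turning to -0.05 by total counts. COL5A3, a fibrillar collagen chain, was lower by 1.76-fold, 2.55-fold and 1.96-fold. COL12A1 was lower by 4.62-fold in fat, 1.32-fold in liver and 2.66-fold in muscle. Markers of tendon and cartilage summed to 605 CPM in Berkshire and 120 CPM in Korean native fat, 64.0 and 58.0 CPM in liver, and 588 and 307 CPM in muscle. Of these 11 markers, 2 were at 0 counts in each of Korean native fat and muscle, 4 in Berkshire liver and 5 in Korean native liver. KERA, a proteoglycan of tendon and cornea, was at 44.1 and 0.296 CPM in fat and 45.9 and 12.5 CPM in muscle. Fibroblast markers summed to 13675 and 19225 CPM in fat, 1080 and 954 CPM in liver and 21688 and 4913 CPM in muscle. Their part in the matrix results was not tested.

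**Figure D4:**
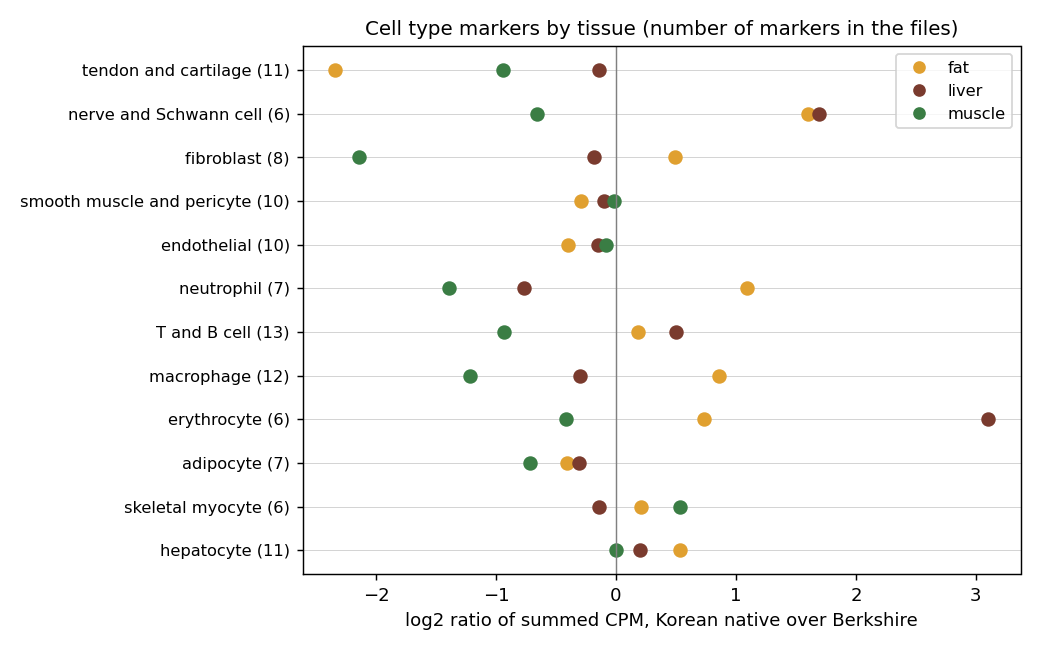
Points give the log2 ratio of Korean native over Berkshire of the summed CPM of each cell type marker list, by tissue. Red cell markers were highest in Korean native liver (3.10), tendon and cartilage markers lowest in Korean native fat (-2.34) and fibroblast markers lowest in Korean native muscle (-2.14).

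Genes of protein sorting and ubiquitin transfer stood at both ends. RER1, a Golgi receptor that returns proteins to the endoplasmic reticulum, was at 3.43, 4.00 and 3.29 CPM in the Berkshire libraries and at 14.9, 27.7 and 17.8 CPM in Korean native pigs. It had the smallest adjusted p of the higher genes with a symbol (0.063 in edgeR), with a mean log2 ratio of 2.35 ± 0.34 (SD over 3 tissues) and no overlap of libraries. The list of retrieval genes, RER1 included, did not lean one way: of 19 tested, 3 were higher and 5 lower in all tissues (14.8% and 14.7% of all genes tested). NEDD4L, a ubiquitin ligase that removes ion channels from the cell surface, measured 2.45, 24.4 and 16.7 CPM in Berkshire and 6.21, 59.7 and 48.2 CPM in Korean native tissues (adjusted p = 0.20 in edgeR). RNF125, a ubiquitin ligase that restrains antiviral signalling, went from 108, 104 and 24.2 CPM to 31.5, 10.3 and 7.84 CPM (adjusted p = 0.19 in edgeR). Of 19 tested ligases and related enzymes, 4 were higher and 6 lower in all tissues, against the same shares of all genes.

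Other genes with known roles were lower in all tissues. FMO2, a flavin monooxygenase that oxidises nitrogen and sulfur compounds, measured 57.8, 5.60 and 33.1 CPM in the Berkshire libraries, with 15.4, 0.663 and 8.77 CPM in Korean native pigs. Its mean log2 ratio was -2.13 ± 0.43 (SD over 3 tissues; adjusted p = 0.12 in edgeR). HPGD, which inactivates prostaglandins, was lower by 2.62-fold, 2.33-fold and 16.2-fold, the last resting on 7 counts in Korean native muscle. SLC27A6, a fatty acid transport protein, was at 26.3, 9.20 and 9.88 CPM in Berkshire and 12.7, 3.81 and 1.38 CPM in Korean native tissues. NOTCH4, a Notch receptor of blood vessels, was lower by 4.91-fold, 2.36-fold and 2.09-fold, while endothelial markers summed to 1505 and 1140 CPM in fat, 672 and 605 CPM in liver and 802 and 757 CPM in muscle. The part of endothelial cells in the NOTCH4 difference was not tested. S1PR1, a receptor for sphingosine phosphate on endothelium and lymphocytes, was lower by 1.73-fold, 2.02-fold and 2.50-fold. Adjusted p in edgeR was 0.42 for HPGD, 0.40 for SLC27A6, 0.31 for NOTCH4 and 0.38 for S1PR1.

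MBNL3, a regulator of splicing, was lower by 2.78-fold, 2.18-fold and 8.07-fold, the last resting on 6 counts in Korean native muscle. BEX1, a gene of the brain-expressed X-linked family, stood at 5.29, 25.2 and 5.31 CPM in Berkshire and 1.68, 2.65 and 2.31 CPM in Korean native pigs, with no overlap. WDR17, which encodes a WD repeat protein, was lower by 3.07-fold, 2.02-fold and 2.71-fold. The higher genes CXorf38 and C16orf87 were both low in level. CXorf38 measured 3.23, 3.20 and 5.49 CPM in Berkshire and 7.99, 7.62 and 11.8 CPM in Korean native pigs, and C16orf87 was higher by 2.19-fold, 3.14-fold and 2.13-fold. Neither pair of breeds overlapped. In edgeR the adjusted p was 0.35 for MBNL3, 0.34 for BEX1, 0.31 for WDR17, 0.39 for CXorf38 and 0.38 for C16orf87. By DESeq2, 13 of the 20 named shared genes passed, against 93 of 18959 genes tested. The 20 were picked by their ratios in these same libraries, so their count is no independent support.

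Some pathways leaned one way without any gene past the adjusted test. In the cholesterol list, 10 of 22 tested genes were higher in all tissues and 0 lower (14.8% and 14.7% of all genes tested), and 8 higher and 0 lower had an unadjusted p under 0.05 (3.71% and 4.28% of all genes). The medians were 0.51 in fat, 1.43 in liver and 0.08 in muscle, the last turning to -0.13 by total counts, with 6 genes then higher in all tissues. SREBF2, the transcription factor that drives the pathway, was higher by 1.67-fold, 1.99-fold and 1.55-fold. The synthetic enzyme SQLE was at 7.54, 38.0 and 5.49 CPM in Berkshire and at 25.2, 387 and 7.38 CPM in Korean native pigs. Proteasome genes were higher in all tissues in 11 of 21 and lower in 0, with small medians of 0.10, 0.14 and 0.60. By total counts, 8 were higher and 1 lower, with medians of 0.01, 0.09 and 0.28. At an unadjusted p under 0.05 in edgeR there were 0 of the 21, against 3.71% higher and 4.28% lower of all genes. All 21 were higher in muscle, but 15 in fat and 15 in liver. Of all 13810 genes tested, 6638 were higher in muscle, 7062 in fat and 6803 in liver. PSME2, an activator subunit with the smallest p of that list, was higher by 1.17-fold, 2.08-fold and 1.45-fold (adjusted p = 0.64 in edgeR).

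**Figure D5:**
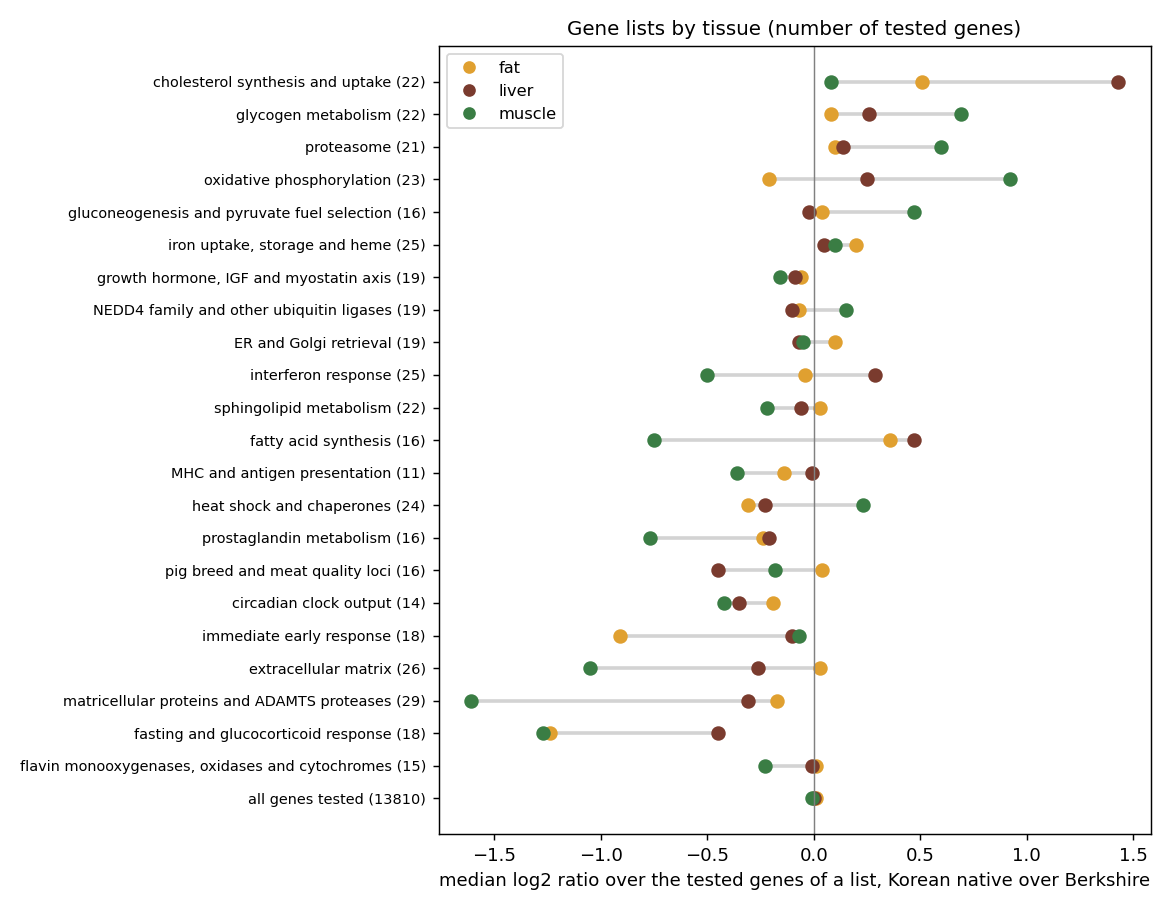
Points give the median log2 ratio of Korean native over Berkshire over the tested genes of each list, by tissue, and the grey line joins the lowest and highest tissue. The fasting and glucocorticoid list was below 0 in all tissues (-1.24, -0.45 and -1.27), and fatty acid synthesis was on both sides (0.36, 0.47 and -0.75).

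Other pathways had median breed ratios that were uneven between tissues. Fatty acid synthesis had medians of 0.36 in fat, 0.47 in liver and -0.75 in muscle, with 2 of 16 genes higher and 2 lower throughout (14.8% and 14.7% of all genes tested). Oxidative phosphorylation was at -0.21, 0.25 and 0.92, and 23 of its 23 tested genes were higher in Korean native muscle while 18 were lower in fat. Of all 13810 genes tested, 6638 were higher in muscle and 6567 lower in fat. In all tissues, 4 of the 23 were higher and 0 lower (14.8% and 14.7% of all genes tested). Heat shock genes were at -0.31, -0.23 and 0.23, the last turning to -0.08 by total counts. The immediate early genes had medians of -0.91 in fat, -0.10 in liver and -0.07 in muscle, with 5 of 18 lower throughout against 14.7% of all genes tested. MYC, a growth transcription factor of that list, was lower by 1.56-fold, 1.82-fold and 3.09-fold. Of 25 tested interferon genes, 2 were higher and 6 lower in all tissues (14.8% and 14.7% of all genes tested). Their medians were -0.04 in fat, 0.29 in liver and -0.50 in muscle. OAS2, an antiviral enzyme, was higher by 2.39-fold, 1.89-fold and 1.42-fold. MX2, an antiviral GTPase, was lower by 3.00-fold, 1.98-fold and 1.81-fold. Whether these medians differ between tissues was not tested, since each breed and tissue has 1 library.

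Markers of fat cells were mostly lower in fat and muscle but not in liver: 6 of 7 were lower in fat and 7 of 7 in muscle, while 5 of 7 were higher in liver. Of all 13810 genes tested, 6567 were lower in fat, 6970 lower in muscle and 6803 higher in liver. Only PLIN1 and PNPLA2 were lower in all tissues, 2 of 7 against 14.7% of all genes tested. PLIN1 was lower in Korean native pigs by 1.76-fold in fat, 2.76-fold in liver and 5.06-fold in muscle. The liver ratio of PLIN1 rests on 16 counts in Berkshire and 7 in Korean native pigs. PNPLA2, the first lipase of stored fat, was lower by 1.58-fold, 1.61-fold and 1.54-fold, the most even ratios of the genes described here. LIPE, the hormone-sensitive lipase, was lower by 2.06-fold in fat and 4.08-fold in muscle but stood at 1.60 and 1.66 CPM in liver. The 7 adipocyte markers, which include these 3 genes, summed to 5157 and 3881 CPM in fat, 87.6 and 70.9 CPM in liver and 718 and 436 CPM in muscle. Among 16 tested genes at loci known for pig breed or meat quality, 2 were higher and 2 lower in all tissues (14.8% and 14.7% of all genes tested). CAPN1, the calcium protease linked to meat tenderness, was higher by 1.30-fold, 2.16-fold and 1.92-fold, and FABP5, a fatty acid binding protein, was lower by 1.66-fold, 1.55-fold and 1.80-fold.

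Lowering the limit from 5 to 1 CPM added 56 genes to the shared set, 26 higher and 30 lower, out of 11926 genes. A symbol was available for 24 of these, 9 higher and 15 lower. SPHK2, a kinase that makes sphingosine phosphate, was at 3.53, 9.60 and 3.29 CPM in the Berkshire libraries and at 0, 0.166 and 0.231 CPM in Korean native pigs (adjusted p = 0.078 in edgeR). TOPAZ1, a gene known from germ cells, was at 0.196, 0 and 0.183 CPM in Berkshire and 3.75, 4.47 and 4.61 CPM in Korean native pigs (adjusted p = 0.095 in edgeR). Both rest on 2 counts or fewer in each library of one breed. NDUFA6, a subunit of respiratory complex I, was at 1.18, 1.00 and 0.183 CPM against 5.23, 4.97 and 9.23 CPM. HIF3A, a hypoxia-inducible factor subunit, was at 6.56, 1.80 and 6.59 CPM against 1.38, 0.166 and 0.231 CPM. CYP2A19, a liver cytochrome with close relatives in the genome, had 1585 CPM in liver of Berkshire, while liver of Korean native pigs had 0 counts, which allows up to 0.497 CPM. Its fat and muscle levels were 2.35 and 4.21 CPM in Berkshire and 0.394 and 0.231 CPM in Korean native pigs, and reads shared with its relatives were not measured, so these values are uncertain.

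Positions were looked up for the shared genes with a symbol. Of the 44 named genes found at either limit, 42 were placed in the gene order of the supplied RefSeq table. Among these 42, 4 were X-linked, a count that leaves out genes not placed. The same share over all genes is not given here, so 4 cannot be called many or few. The only pair of these 42 within 10 genes of each other was GNLY and TMEM150A, 4 genes apart. They went in opposite directions: GNLY, granulysin of cytotoxic lymphocytes, was lower in Korean native pigs and the membrane protein gene TMEM150A was higher. Both rest on few counts. GNLY had 94, 28 and 18 counts in Berkshire and 29, 12 and 2 in Korean native pigs. TMEM150A had 5, 3 and 3 counts against 33, 15 and 9. Neither passed adjustment (adjusted p = 0.34 for GNLY and 0.35 for TMEM150A in edgeR). The shared genes without a symbol were not placed.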

How the data were processed

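RNA from frozen tissue was extracted with Trizol and made into TruSeq libraries, per the labels' protocols. The authors deposited whole read counts for each Ensembl gene, not normalized. The submitters' processing notes name TopHat, HTSeq 0.5.3p3 and the Sscrofa10.2 build. The sources used here do not give the strand setting, counting mode or annotation release, and reads from genes that overlap or lie antisense may therefore be mixed. The 5 closing entries of each file name no gene and were left out: reads outside genes were 45.9% to 52.5% and reads without a unique place 14.1% to 20.8% of all entries. A count of 0 allows 3 counts, or 0.294 to 0.692 CPM, which covers counting error only. Symbols came from the supplied name table and matched 11804 of 25322 rows (46.6%). Neighbours came from RefSeq's gene order, which is on a later assembly than the counts, so no position is given.

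Breeds were compared with edgeR 4.0.16 in R 4.3.3 by the quasi-likelihood test with tissue as a covariate, two-sided, with TMM factors and filterByExpr, which kept 13810 genes. The model has 2 residual degrees of freedom. CPM used the library sizes of the kept genes. Ratios within a tissue used a prior count of 2 on the log2 scale and have no test. The fold limits and the smallest ratios beside the 2-fold limit use that prior. Other fold values are ratios of CPM without the prior. They were not given where a library had 3 counts or fewer, unless both levels are printed. Alternatives were DESeq2 1.42.0, limma-voom (limma 3.58.1), other scaling factors, no filter, no tissue term, a robust prior and leaving out each library. The procedure was tested on simulated data.

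Named genes were those with a symbol that passed the test or differed by 2-fold or more one way in every tissue. The 5 of smallest p in each direction and up to 3 of smallest p in each list were added. So were the 3 on each side of the 2-fold limit and, for each tissue, 2 genes going against the others. Up to 2 identifiers without a symbol were named in each direction. Others in the text (such as PYGM, KLF9, DBP, LDHA, ADAMTS5 and the genes of the 1 CPM limit) were picked after their values were seen. The comparison, lists and rules were chosen with earlier results of these data known, so no count over a list is independent support. Some genes that this rule names are not reported here.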

Additional observations from a re-analysis of the deposited data

Results flagged for a closer look

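Some genes had a breed ratio at least 2-fold one way in 1 tissue and at least 2-fold the other way in both others. Fat stood apart in 6 such genes, liver in 5 and muscle in 3, with or without a symbol. For each tissue, the 2 with a symbol whose smallest ratio was largest are described here. These differences between tissues were not tested, since each breed and tissue has 1 library. C2, a complement component, had a log2 ratio of 1.42 in fat against -1.81 in liver and -2.14 in muscle. MFAP2, a microfibril protein, was at 1.39 in fat, -2.35 in liver and -2.03 in muscle. PAPLN, a matrix glycoprotein, was at 1.77 in liver, -1.58 in fat and -2.45 in muscle. FMO1, a flavin monooxygenase related to FMO2, was at 1.51 in liver, -1.98 in fat and -2.97 in muscle. SCD, the desaturase that makes oleic acid, was at -2.55 in muscle, 2.19 in fat and 1.42 in liver, with 926 CPM in Berkshire and 158 CPM in Korean native muscle. EDNRB, an endothelin receptor, was at 1.25 in muscle, -1.17 in fat and -1.10 in liver.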

How the results depend on the processing

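The 15 calls of edgeR's quasi-likelihood test stayed at 15 with median-ratio factors, total counts or a robust prior, and limma-voom gave 12, of which 9 were among the 15. DESeq2 gave 93 and no filter 87. Without the tissue term edgeR called 0 genes, with 114 at an unadjusted p under 0.05. Leaving out 1 library gave between 16 and 83 calls. Each such fit keeps 1 residual degree of freedom less and rests on the other tissues, because the tissue term takes up the lone library. The 47 shared genes became 103 at a limit of 1 CPM and 14 at 5 CPM in both libraries of each tissue. Over pairs of tissues the count was 81 (fat with liver), 126 (fat with muscle) and 159 (liver with muscle), where fewer tissues have to match. Other scaling or prior counts gave 45 to 50. Over 74 named genes and the alternatives, 899 of 960 values kept their direction and side of the threshold. Another 57 newly passed, 4 no longer passed (all PCK1) and 0 reversed. Only PCK1 among these genes passed in the main fit, so no other gene could lose a call. The 899 therefore mostly count genes that did not pass in either fit. Total counts shifted the median of all tested genes from 0.02 to -0.12 on the log2 scale, and list medians within a tissue moved with it: those near 0 changed sign for cholesterol, heat shock and extracellular matrix genes, beside which both values are given, and for some lists whose medians are not printed in the comparison, such as iron genes in muscle (0.10 to -0.18). The test with tissue as covariate is itself the paired analysis, with 1 pair of libraries per tissue.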
